A study of Mus musculus with 6 samples.

Results

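Immunoglobulin variable (V) genes were read in bulk RNA-seq of splenic CD8+ T cells from mice whose tumors had been treated by microwave ablation (MWA). The genes were those with a symbol beginning Ighv, Igkv or Iglv and a mean FPKM (fragments scaled to transcript length and to the mapped fragments of the library) of at least 1 over the 6 samples. Of 219 V genes listed among 28773 gene IDs, 140 met this rule, namely 62 of 111 Ighv, 75 of 105 Igkv and 3 of 3 Iglv genes, which lie on chromosomes 12, 6 and 16 respectively in GENCODE M21. The 3 MWA+PBS samples (replicates 1 to 3) came from mice given the PBS vehicle after ablation, and the 3 MWA+2DG samples (replicates 4 to 6) from mice given 2-deoxy-D-glucose (2DG), a glucose analog that blocks glycolysis. All samples were taken on day 35. All mice had been implanted with a tumor that was then ablated, so neither group was untreated. Per the study's methods, the ablation was done and the 2DG injections had ended before that day. The cells were enriched from the spleen with a CD8+ T cell isolation kit. The labels give no strain, tumor line or age for these mice, and they do not say whether each sample was 1 mouse or a pool. The V gene annotation used here comes from the C57BL/6J reference genome, and the V genes of other strains can differ from it in sequence and number, so the values of single V genes, the identities and the printed sequences hold for that reference.

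V genes encode the antigen-binding part of antibodies. During B cell development, 1 V gene of the heavy chain locus (Ighv) and 1 of a light chain locus, kappa (Igkv) or lambda (Iglv), are joined to short D and J or J segments and are then spliced to a constant region. A mature B cell or plasma cell therefore transcribes mainly 1 heavy and 1 light V gene, and the V genes seen in a tissue reflect the mixture of its B lineage clones. CD8+ T cells use the T cell receptor V genes and are not a usual source of complete immunoglobulin transcripts. Plasma cells, which secrete antibody, hold far more immunoglobulin RNA per cell than resting B cells.

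The labelled cell type was visible in both groups. Cd8a, the CD8 coreceptor chain, was 231.5 ± 6.96 FPKM in MWA+PBS against 366.4 ± 9.47 in MWA+2DG (mean ± SD, n = 3 each, as throughout). Markers of other cells were present too and differed between the groups. The summed FPKM of 14 neutrophil genes was between 337.64 and 366.39 in the MWA+PBS samples and between 1640.01 and 1821.37 in MWA+2DG, whereas that of 14 monocyte and macrophage genes was between 897.9 and 971.22 in the MWA+PBS samples and between 128.75 and 138.88 in MWA+2DG. The neutrophil genes did not move together. Mpo was 226 ± 22.2 FPKM in MWA+PBS against 33.4 ± 0.847 in MWA+2DG, and Elane was 47.2 ± 3.05 and 10.7 ± 1.42. The means of the other genes of that list were higher in MWA+2DG, as for S100a9 with 23.2 ± 6 and 596 ± 46.8 FPKM. Of these lists, 0 genes were at 0 in every sample. The part of cell composition in the results below was not tested, and in bulk samples fewer B lineage cells and less immunoglobulin RNA per cell cannot be told apart. Read depth is unknown, because FPKM holds no counts.

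V gene RNA was lower in MWA+2DG at all 3 loci. The members together held 1820.66, 1881.26 and 1628.24 FPKM in MWA+PBS replicates 1 to 3 and 780.16, 650.37 and 741.59 FPKM in MWA+2DG replicates 4 to 6. They took between 0.542% and 0.601% of all FPKM in the MWA+PBS samples and between 0.22% and 0.256% in MWA+2DG. The Ighv sum was 611 ± 33.4 FPKM in MWA+PBS against 231 ± 32.1 in MWA+2DG, a ratio of 0.378. The Igkv sum was 1066 ± 85.7 FPKM in MWA+PBS against 440 ± 29.1 in MWA+2DG, a ratio of 0.413. The Iglv sum was 99.2 ± 15 FPKM in MWA+PBS against 53 ± 5.41 in MWA+2DG, a ratio of 0.535. At each locus the 3 MWA+2DG samples lay below the 3 MWA+PBS samples, which gives a two-sided exact permutation p of 0.1, the smallest that 3 against 3 samples allow.

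**Figure D1:**
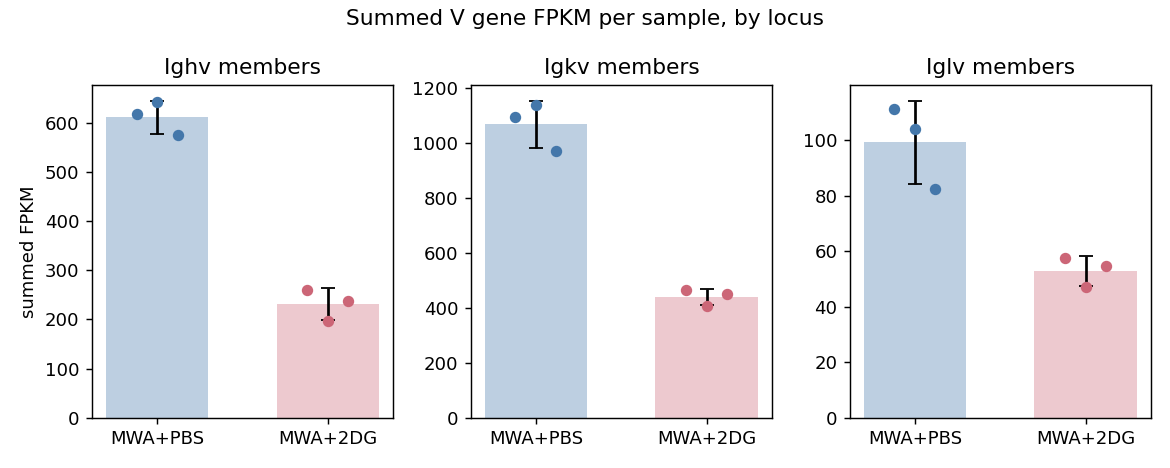
Summed FPKM of the Ighv, Igkv and Iglv members in each sample. Points are samples, bars are group means, whiskers are SD (n = 3), and each y axis starts at 0. The MWA+2DG samples sit below all MWA+PBS samples at each locus, between 195.77 and 258.77 FPKM for Ighv against 575.49 to 641.49 in MWA+PBS.

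The decrease was spread over most V genes. In a limma fit over 12444 genes on log2(FPKM + 1), 103 of the 140 members were lower in MWA+2DG (Benjamini-Hochberg adjusted p under 0.05), 4 were higher and 33 were not called. Over all genes tested, 17.1% were called lower and 22.3% higher. The median log2 fold change (MWA+2DG minus MWA+PBS) was -0.90 over the members and 0.05 over all genes. Below the called level, 28 further members had a negative and 5 a positive value. By locus, 42 Ighv, 59 Igkv and 2 Iglv members were lower, and 1, 2 and 1 were higher. The groups did not overlap in 113 members, 109 with MWA+2DG below and 4 with MWA+2DG above, where the shares over all genes tested were 21.9% and 30.2%. The members not called were mostly low, with a median mean FPKM of 2 against 8.19 for those called. Of the members, 23 had a mean of at least 1 in MWA+PBS alone and 1, Igkv9-123, in MWA+2DG alone, so for these the level rule itself favors a difference. In the 116 members with a mean of at least 1 in each group, 86 were lower and 3 higher. Around the threshold, Ighv1-50 was just inside with a mean of 1.01 FPKM, and Ighv3-5 just outside with 0.955 FPKM.

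The heavy chain V gene with the highest mean over the 6 samples was Ighv2-9 (ENSMUSG00000096638). It was 71.24, 72.96 and 72.67 FPKM in the MWA+PBS samples and 15.99, 11.53 and 17.22 FPKM in the MWA+2DG samples. It was the highest Ighv gene in 5 of the 6 samples and held between 11.4% and 12.6% of Ighv FPKM in MWA+PBS. Its log2 fold change was -2.22 (SE 0.13, adjusted p = 1.65e-05), and its values did not overlap between the groups. Ighv7-3, the second gene in each MWA+PBS sample, was 41.72, 43.27 and 38.11 FPKM in MWA+PBS against 14.63, 14.62 and 14.68 in MWA+2DG. It was the highest Ighv gene in MWA+2DG replicate 5, and its log2 fold change was -1.42 (SE 0.06, adjusted p = 4.21e-06). Of the other 6 of the 8 highest Ighv genes, all fell, from -0.66 for Ighv11-2 through -0.95 for Ighv3-6, -1.41 for Ighv6-6, -1.42 for Ighv1-4 and -1.65 for Ighv10-1 to -1.94 for Ighv2-2. Ighv3-6 lost its call under 3 of 15 alternatives.

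The V gene with the highest mean over the 6 samples was Igkv1-110 (ENSMUSG00000093861), a kappa light chain gene, although Ighv2-9 had the higher mean in MWA+PBS (72.3 against 68.7 FPKM). It was 71.8, 79.02 and 55.4 FPKM in MWA+PBS against 35.2, 37.04 and 34.43 FPKM in MWA+2DG, and it led the Igkv genes in each of the 6 samples. Its log2 fold change was -0.92 (SE 0.12, adjusted p = 9.08e-04). Igkv1-117, with 97.2% of its coding bases in common with Igkv1-110, fell by 0.73, and Igkv1-135 and Igkv1-88 of the same family fell by 1.11 and 0.99 on the log2 scale. Igkv4-59 and Igkv10-96 were close to Igkv1-135 in MWA+PBS, with means of 48.4 and 46 FPKM, but they were 11.3 and 13 FPKM in MWA+2DG, where Igkv1-135 was 20.6. Igkv4-53 fell by 1.53, and Igkv14-126 fell by 0.70 on the log2 scale.

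On the log2(FPKM + 1) scale, the 5 largest decreases among called members were those of 4 kappa genes and 1 heavy chain gene. By the ratio of mean FPKM, which weighs low genes more, the lowest were Ighv6-7 (0.0499), Igkv4-79 (0.0538), Ighv9-4 (0.0951) and Ighv1-55 (0.0962), each with a mean under 1 FPKM in MWA+2DG. Ighv6-7 and Ighv1-55 were named after their values were seen. Igkv8-21 (ENSMUSG00000076586) was 19.66, 18.3 and 18.19 FPKM in MWA+PBS against 3.06, 2.39 and 1.92 FPKM in MWA+2DG. Igkv8-30, the member nearest to it in sequence (93.4% identity over 362 aligned coding bases), was 37.86, 40.71 and 33.02 FPKM in MWA+PBS against 6.47, 4.28 and 6.4 FPKM in MWA+2DG. Both fell by 2.52 on the log2 scale. Igkv3-5 fell by 2.46, Igkv4-79 by 2.44 and Ighv9-4 by 2.37. Igkv4-79 was between 5.21 and 6.24 FPKM in MWA+PBS but was listed at 0.04, 0.9 and 0 FPKM in MWA+2DG. Both Igkv4-79 and Ighv9-4 had a mean under 1 FPKM in MWA+2DG and met the level rule through MWA+PBS alone. Ighv9-4 was between 7.4 and 8.68 FPKM in the MWA+PBS samples and between 0.57 and 1.14 FPKM in MWA+2DG. The smallest change among members called lower was that of Igkv10-94, at -0.30 (SE 0.09, adjusted p = 0.0361), which lost its call under 6 of 15 alternatives.

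**Figure D2:**
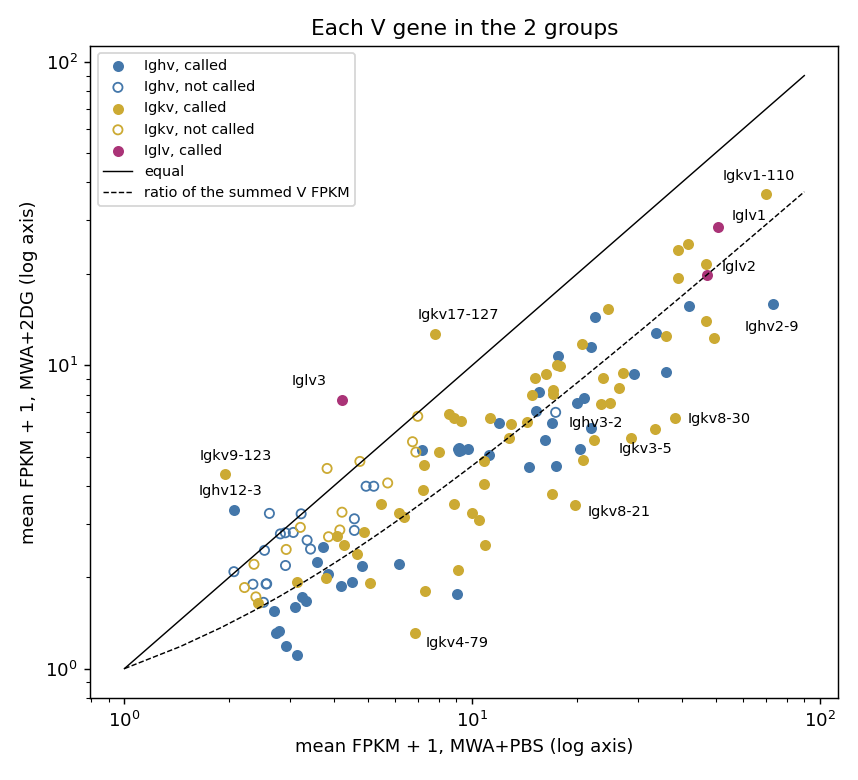
Mean FPKM + 1 of each of the 140 members in MWA+PBS (x, log axis) and MWA+2DG (y, log axis), colored by locus and filled where called. The solid line marks equal levels and the dashed line the ratio of the summed V FPKM. Most points lie below the solid line, and Igkv17-127, Iglv3, Igkv9-123 and Ighv12-3 are the 4 called above it.

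Those 4 members went the other way. Iglv3 (ENSMUSG00000076939), a lambda light chain gene, was 4.2, 2.99 and 2.46 FPKM in MWA+PBS against 8, 5.76 and 6.34 FPKM in MWA+2DG, and the log2 fold change was 0.88 (SE 0.17, adjusted p = 0.00493). Igkv17-127 (ENSMUSG00000076508) was 6.89, 6.56 and 7.02 FPKM in MWA+PBS against 11.49, 10.09 and 13.53 FPKM in MWA+2DG, and the log2 fold change was 0.69 (SE 0.10, adjusted p = 0.00137). Both were above every MWA+PBS value in each MWA+2DG sample. Both stayed called under each alternative pseudocount, filter, scaling, variance model or left-out sample in which they were tested (14 for Iglv3 and 15 for Igkv17-127). Neither is called where a log2 fold change beyond 1 is also required. Igkv9-123 was 1.45, 1.38 and 0 FPKM in MWA+PBS against 2.16, 2.79 and 5.19 FPKM in MWA+2DG, and the log2 fold change was 1.22 (SE 0.38, adjusted p = 0.0385). Ighv12-3 was 0.4, 1.32 and 1.49 FPKM in MWA+PBS against 2.99, 1.75 and 2.28 FPKM in MWA+2DG, and the log2 fold change was 0.72 (SE 0.24, adjusted p = 0.0454). Igkv9-123 met the level rule through MWA+2DG alone, the group in which it was higher. These latter 2 genes were low, and they lost their call under 6 and 8 of 14 alternatives, with adjusted p up to 0.131 and 0.141. The log2 fold change was 0.80 for Igkv9-123 without MWA+PBS replicate 3 and 0.46 for Ighv12-3 without MWA+PBS replicate 1, and 2.41 and 1.20 with a pseudocount of 0.1.

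The lambda genes are shown because their directions differed, and because similar V genes can exchange reads. The lines give the start of the second exon of each gene (its coding bases, 5′ to 3′, GENCODE M21 on GRCm38, germline reference and not the reads of these mice), and capitals mark bases of Iglv2 and Iglv3 that are not aligned to an identical base of Iglv1.
Iglv1: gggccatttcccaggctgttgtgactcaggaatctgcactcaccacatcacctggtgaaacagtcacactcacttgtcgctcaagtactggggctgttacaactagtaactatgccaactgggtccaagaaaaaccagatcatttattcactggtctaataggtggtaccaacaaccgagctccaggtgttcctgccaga
Iglv2: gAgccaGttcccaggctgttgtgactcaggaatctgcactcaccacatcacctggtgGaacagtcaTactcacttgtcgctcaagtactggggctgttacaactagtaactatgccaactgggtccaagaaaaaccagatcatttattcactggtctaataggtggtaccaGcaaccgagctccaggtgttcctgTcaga
Iglv3: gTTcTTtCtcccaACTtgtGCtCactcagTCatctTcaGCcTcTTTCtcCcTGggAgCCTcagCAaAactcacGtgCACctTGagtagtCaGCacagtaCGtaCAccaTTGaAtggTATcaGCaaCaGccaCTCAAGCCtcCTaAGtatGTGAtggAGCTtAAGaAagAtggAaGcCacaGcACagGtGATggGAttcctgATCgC

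Iglv1 and Iglv2 were 97% identical over the 305 bases of this exon and differed at 6 of the 200 bases shown. Iglv3 was 59.1% identical to Iglv1 over 296 aligned bases, with 96 of its 206 bases shown in capitals. Iglv1 was 55.43, 52.91 and 40.66 FPKM in MWA+PBS against 30.11, 22.86 and 29.63 FPKM in MWA+2DG. Iglv2 was 51.67, 48.07 and 39.27 FPKM in MWA+PBS against 19.39, 18.41 and 18.64 FPKM in MWA+2DG. The log2 fold changes were -0.83 (SE 0.14, adjusted p = 0.00323) for Iglv1 and -1.25 (SE 0.10, adjusted p = 7.26e-05) for Iglv2. Iglv3 thus made up 3.21 ± 0.49% of Iglv FPKM in MWA+PBS against 12.6 ± 1.19% in MWA+2DG. The lambda constant genes also differed from each other, but which V gene each was joined to was not measured. Iglc1 was 32 ± 7.9 FPKM in MWA+PBS against 15.8 ± 1.79 in MWA+2DG, and Iglc3 was 3.21 ± 0.714 and 7.88 ± 0.98. Iglc2 was 14 ± 2.43 and 13.3 ± 2.02 FPKM (limma, adjusted p = 0.751).

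Igkv17-127 has a close relative, Igkv17-121, that was not called, and the same stretch of both is shown for that reason, with capitals where Igkv17-127 differs.
Igkv17-121: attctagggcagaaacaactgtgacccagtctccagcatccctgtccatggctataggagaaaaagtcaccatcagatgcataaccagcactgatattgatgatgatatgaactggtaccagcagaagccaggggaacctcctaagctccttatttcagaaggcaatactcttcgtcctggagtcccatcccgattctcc
Igkv17-127: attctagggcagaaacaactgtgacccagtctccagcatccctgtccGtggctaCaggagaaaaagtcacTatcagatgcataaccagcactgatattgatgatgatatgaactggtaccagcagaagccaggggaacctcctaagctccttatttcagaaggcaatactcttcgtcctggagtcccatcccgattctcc

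The pair was 98% identical over the 298 bases of the exon and differed at 3 of the 200 bases shown. Igkv17-121 was 3.48, 5.57 and 5.08 FPKM in MWA+PBS against 2.09, 3.64 and 3.54 FPKM in MWA+2DG, and the log2 fold change was -0.49 (SE 0.20, adjusted p = 0.0863), with groups that overlapped. Such likeness was common. For 60 of the 140 members the nearest other member of the locus had at least 95% of aligned coding bases in common, and for 23 at least 97%. The sources used here do not say how reads that match several V genes were assigned, so single V genes are less certain than sums over a family. An example is Igkv6-20, called lower at -1.60, beside Igkv6-29, not called at -0.37, which shared 98.6% of coding bases.

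Replicates varied more in V genes than in other genes of like level. Within groups, the median SD of log2(FPKM + 1) was 0.254 for the 70 members with a mean between 2.2 and 11.8 FPKM, and 0.103 for the 6167 other genes in that range. The widest case named here, chosen after its values were seen, is the pseudogene Ighv3-2, which was 9.1, 28.2 and 11.77 FPKM in MWA+PBS against 11.3, 5.98 and 0.69 FPKM in MWA+2DG. Its log2 fold change of -1.57 (SE 0.71, adjusted p = 0.12) was not called. Pearson's r across the 140 members on that scale, given as a description because members are not replicates, ran from 0.913 to 0.97 within a group and from 0.768 to 0.862 across groups.

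V genes are grouped into families by the first number of their symbol, which for Ighv and Igkv follows sequence likeness, whereas each Iglv gene counts as its own family although Iglv1 and Iglv2 are much alike. Of the 34 families so defined, 19 had at least 3 members. The summed FPKM of each of these 19 was lower in every MWA+2DG sample than in every MWA+PBS sample (exact permutation p = 0.1 for each, the smallest possible, and 0.1 after adjustment over the families). The ratio of the means ran from 0.261 for Ighv2, whose sum was 156 ± 5.7 FPKM in MWA+PBS against 40.7 ± 7.11 in MWA+2DG, to 0.688 for Ighv8, with 7.81 ± 0.779 and 5.37 ± 0.336 FPKM. In Ighv2, 6 of 7 members were called lower, and in Ighv8 none of 3 was called, where 17.1% of all genes tested were called lower. Ighv1, the family with the most members, had 15 of 26 called lower and a ratio of 0.461. Igkv4, the largest kappa family, had 14 of 17 called lower and a ratio of 0.409. The counts for Ighv2, Ighv1 and Igkv4 include members that met the level rule through MWA+PBS alone. Examples are Ighv2-4, Ighv1-55 and Igkv4-79, and for such members the rule itself favors a lower call. Igkv3, Igkv8 and Igkv6 had the lowest ratios among kappa families with at least 3 members, at 0.298, 0.325 and 0.328, and Igkv2 had the highest of these, at 0.681. Among all 34 families, the 3 above 1 were single genes or a pair, namely Ighv12, Igkv17 and Iglv3.

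**Figure D3:**
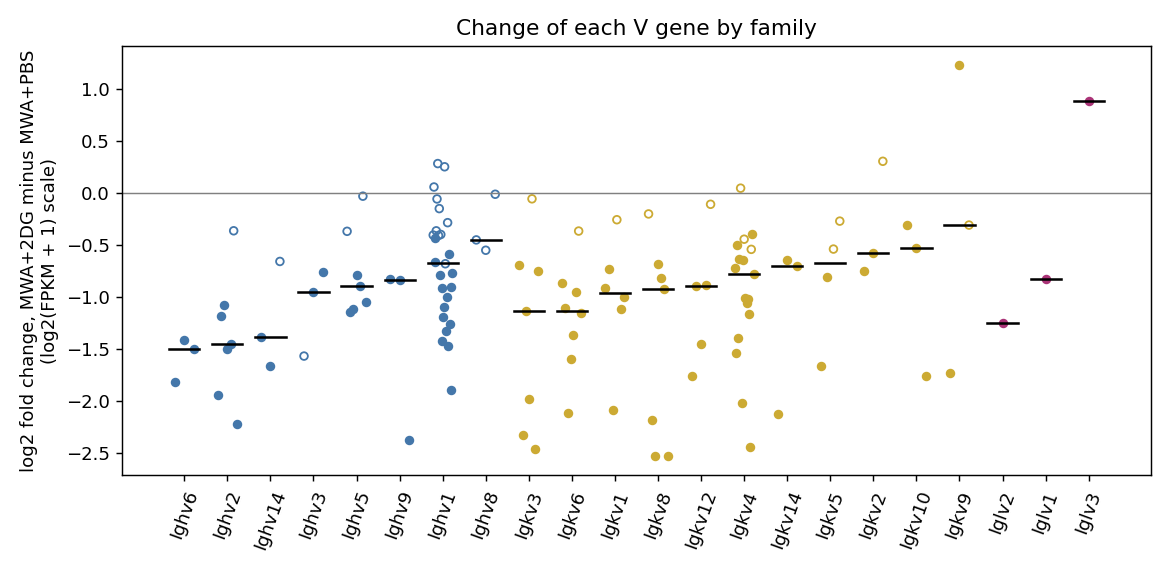
Log2 fold change of each member (y axis, log2(FPKM + 1) scale, MWA+2DG minus MWA+PBS) in the families with at least 3 members and in the 3 lambda families. Filled points were called, open points were not, and bars mark family medians. Medians run from -1.50 in Ighv6 to -0.31 in Igkv9 among the families with at least 3 members, and Iglv3 lies at 0.88.

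Because all loci fell, the families were also read as shares of the summed FPKM of their locus. In 13 of the 19 families the shares of the groups did not overlap, 7 with a larger and 6 with a smaller share in MWA+2DG (smallest adjusted exact permutation p = 0.146 over the 19 families, so none passed). Ighv2 went from 25.5 ± 2.14% of Ighv FPKM in MWA+PBS to 17.5 ± 1.02% in MWA+2DG. Ighv1 went from 18.2 ± 0.27% to 22.2 ± 0.945%, and Ighv5 from 7.46 ± 0.694% to 9.73 ± 0.297%. Among kappa genes, Igkv1 went from 19.1 ± 1.6% to 23 ± 0.838%, Igkv3 from 11 ± 1% to 7.92 ± 0.462% and Igkv8 from 11.5 ± 0.253% to 9.01 ± 0.317%. The share of Igkv4 was 20.3 ± 0.893% and 20.1 ± 0.872%, with overlapping groups.

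**Figure D4:**
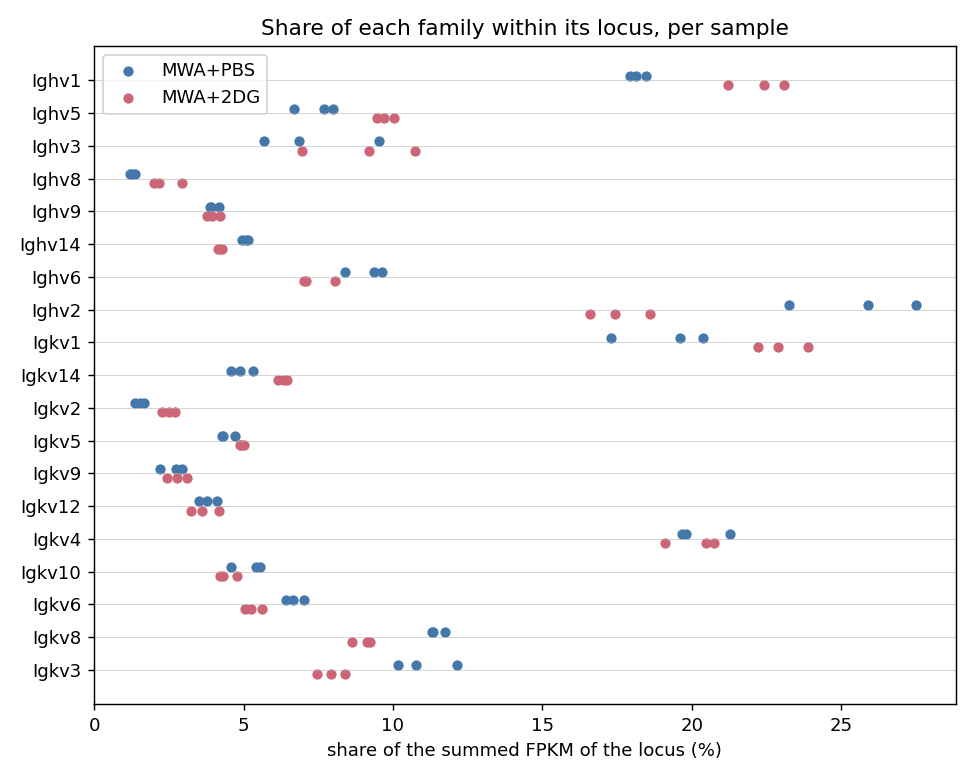
Share of each family with at least 3 members in the summed FPKM of its locus (x axis, percent), with 1 point per sample. Ighv2 holds the largest Ighv share in MWA+PBS, and Ighv1 the largest in MWA+2DG.

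Single members were also compared after each sample was scaled to its summed V FPKM, which asks whether a gene rose or fell relative to the whole V pool. This scaling was chosen after the data were seen, and it contains the members themselves. On this scale 47 members were higher in MWA+2DG, 35 lower and 58 not called, against 91.6% of all genes tested higher and 2.63% lower, since the scaling raises genes outside the V pool in MWA+2DG. In the 116 members with a mean of at least 1 in each group, 45 were higher and 28 lower. The largest positive log2 fold changes on it were those of Igkv9-123 (1.98), Iglv3 (1.92), Igkv17-127 (1.84) and Ighv12-3 (1.47), and the most negative were those of Igkv4-79 (-1.75), Ighv9-4 (-1.49) and Igkv8-21 (-1.43). Of these, Igkv9-123, Igkv4-79 and Ighv9-4 met the level rule through 1 group alone. Ighv11-2 and Igkv14-126, and Ighv12-3 and Igkv4-91, are known as heavy and light chain pairs of B-1 cells that bind phosphatidylcholine. Igkv4-91 was named after its values were seen. Relative to the V pool and on the log2 scale, Ighv11-2 was higher by 0.56 (SE 0.09, adjusted p = 1.14e-04), Igkv14-126 by 0.55 (SE 0.08, adjusted p = 7.02e-05) and Igkv4-91 by 0.41 (SE 0.14, adjusted p = 0.0152). These genes are among the 47 members called higher, and the median over the members on this scale was 0.15, so the direction was not particular to them. With 91.6% of genes called, adjustment makes the threshold barely stricter. In FPKM, Ighv11-2, Igkv14-126 and Igkv4-91 were lower in MWA+2DG, with log2 fold changes of -0.66, -0.70 and -0.78.

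The evenness of V gene use was measured as the effective number of V genes, the number of equally used genes that would give the same Shannon entropy. For Ighv it was 35.9, 35 and 34.7 in MWA+PBS against 39.3, 41.8 and 39.4 in MWA+2DG, higher in each MWA+2DG sample (exact permutation p = 0.1). For Igkv it was 50.2 ± 1.28 in MWA+PBS against 49.8 ± 0.391 in MWA+2DG, with overlapping groups (exact permutation p = 0.8). This difference of -0.445 turned to 0.28 without MWA+PBS replicate 3 and to 0.10 over all V genes listed, and it was -2.97 with the inverse Simpson index and -1.75 over members with a mean of at least 5, both without overlap. The 10 highest Ighv genes held between 50.8% and 52.5% of Ighv FPKM in the MWA+PBS samples and between 43.1% and 48.1% in MWA+2DG. The 10 highest Igkv genes held 41.2%, 41.4% and 38.3% of Igkv FPKM in MWA+PBS and 41.7%, 41.7% and 42.2% in MWA+2DG. These shares were slightly higher in MWA+2DG, but MWA+PBS replicates 1 and 2 were close to it, and the gap came mainly from MWA+PBS replicate 3.

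Position was described by ordering the listed genes of a locus by their distance from the constant genes and cutting the order into 3 blocks of equal gene number. In the kappa locus, the block nearest to the constant gene held 32.8 ± 1.39% of Igkv FPKM in MWA+PBS against 24.4 ± 1.16% in MWA+2DG, whereas the farthest block held 39.6 ± 0.624% and 47.1 ± 0.725%. The median log2 fold change was -1.16 over the 25 members of the nearest block and -0.72 over the 26 of the farthest. In the heavy chain locus the nearest block held 65.3 ± 0.914% in MWA+PBS against 61.5 ± 1.53% in MWA+2DG. Neither group overlapped the other in these 3 shares (exact permutation p = 0.1 for each), and genes of a family often lie near each other, so position and family cannot be told apart here.

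The light chain V pool was mainly kappa in both groups. Igkv held 90.8%, 91.6% and 92.2% of light chain V FPKM in MWA+PBS against 89%, 89.7% and 89.1% in MWA+2DG, without overlap (exact permutation p = 0.1). The kappa constant gene fell as well. Igkc was 863.32, 916.35 and 795.41 FPKM in MWA+PBS against 380.49, 322.79 and 363.9 FPKM in MWA+2DG. The log2 ratio of summed Igkv to Igkc was 0.312 ± 0.0262 in MWA+PBS against 0.308 ± 0.0258 in MWA+2DG (exact permutation p = 0.7), a difference much smaller than the spread within a group. For the heavy chain, the log2 ratio of summed Ighv to the summed constant genes was -0.575 ± 0.0452 in MWA+PBS against -0.923 ± 0.147 in MWA+2DG, lower in each MWA+2DG sample (exact permutation p = 0.1). Against Ighm alone, which encodes the IgM heavy chain, the difference was -0.26 on the log2 scale, again without overlap.

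The heavy chain constant genes did not move together. Ighm was 877 ± 43.6 FPKM in MWA+PBS against 394 ± 20 in MWA+2DG, and the log2 fold change was -1.15 (adjusted p = 1.85e-05). Ighd, which encodes the IgD chain of naive B cells, was 1.76, 1.75 and 1.63 FPKM in MWA+PBS against 17.96, 17.9 and 17.93 FPKM in MWA+2DG, and the log2 fold change was 2.80 (adjusted p = 1.87e-07). Ighg2c and Ighg2b fell by 1.23 and 1.04, and Ighg1 rose by 0.47. Of 11 constant genes tested, the light chain genes Igkc, Iglc1, Iglc2 and Iglc3 included, 7 were lower and 3 higher, with a median of -0.52, beside 17.1% lower and 22.3% higher over all genes tested.

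Other B lineage genes moved in both directions beside the V genes. Of 23 B cell genes tested, 18 were higher in MWA+2DG and 3 lower (median log2 fold change 1.28), beside 22.3% higher and 17.1% lower over all genes tested. The summed FPKM of the 25 B cell genes measured was between 86.17 and 90.59 in the MWA+PBS samples and between 173.44 and 180.16 in MWA+2DG. Cd79a, a signaling chain of the B cell receptor, was 1.44, 0.93 and 1.28 FPKM in MWA+PBS against 12.88, 10.82 and 13.68 FPKM in MWA+2DG. Jchain, which joins secreted IgM and IgA, moved with the V genes, at 62.2 ± 3.67 FPKM in MWA+PBS against 24.7 ± 1.11 in MWA+2DG (log2 fold change -1.30, adjusted p = 6.66e-06). Of 15 plasma cell genes tested, 8 were lower and 4 higher, with a median of -0.18, beside 17.1% lower and 22.3% higher over all genes tested. The defining genes Sdc1 and Tnfrsf17 were below 1 FPKM in all 6 samples, too low to be tested. Tnfrsf17 was 0.76, 0.52 and 0.54 FPKM in MWA+PBS against 0.15, 0.25 and 0 FPKM in MWA+2DG, whereas Sdc1 overlapped between the groups. The transcription factor Prdm1 was between 0.9 and 1.47 FPKM. Several genes of the plasma cell list serve secretion in many cell types.

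**Figure D5:**
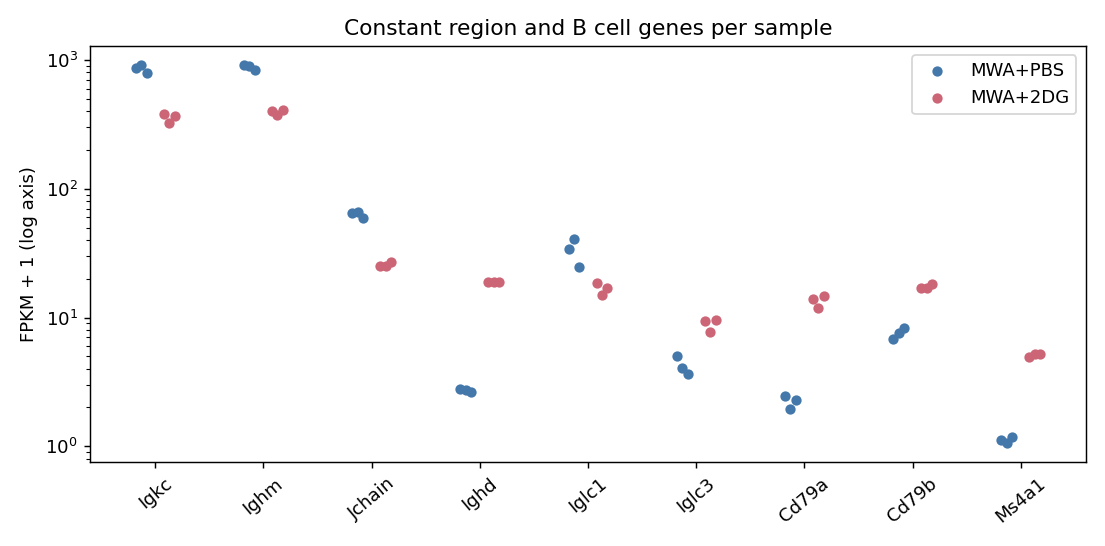
FPKM + 1 (log axis) of immunoglobulin constant genes, Jchain and B cell receptor or surface genes, with 1 point per sample. Igkc, Ighm, Jchain and Iglc1 are lower in MWA+2DG, and Ighd, Iglc3, Cd79a, Cd79b and Ms4a1 are higher.

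Most T cell receptor V genes, the counterparts of these genes in T cells, rose. Of 108 Trav and Trbv genes with a mean FPKM of at least 1, 71 were higher in MWA+2DG and 1 lower (median log2 fold change 0.55), beside 22.3% higher and 17.1% lower over all genes tested. Their sum was between 870.66 and 944.61 FPKM in the MWA+PBS samples and between 1330.18 and 1504.05 FPKM in MWA+2DG. The log2 ratio of summed immunoglobulin V to T cell receptor V FPKM was 1.01, 0.99 and 0.90 in MWA+PBS against -0.95, -1.03 and -0.96 in MWA+2DG (exact permutation p = 0.1). Immunoglobulin V RNA therefore exceeded T cell receptor V RNA in each MWA+PBS sample and was below it in each MWA+2DG sample.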

How the data were processed

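RNA-seq was made from 6 samples of splenic CD8+ T cells on day 35, 3 per group, grouped by their labels. Libraries were prepared from poly(A) RNA with strand marking and molecular identifiers. Per the study's methods, the authors used fastp for quality control and HISAT2 for mapping, and computed the deposited FPKM values with StringTie and ballgown. The submitters' processing notes name cutadapt 1.9, HISAT2 2.0.4, UMI-tools, StringTie 1.3.4d and the build mm9. The reference used here is GRCm38, so no coordinates are printed. The use of identifiers or strand in quantification and the treatment of multi-mapped reads were not given in the sources used here. FPKM is relative to the library total, and depth is unknown. The labels name no batch, and any batch aligned with treatment could not be told apart from it. Nothing states that samples came from separate mice, so p-values measure the spread between these samples, which may be technical.

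Symbols came from GENCODE M21 for 28689 of 28773 gene IDs. Genes with a mean FPKM of at least 1 (12444) were tested on log2(FPKM + 1) with limma 3.58.1 in R 4.3.3 (eBayes with a trend, two-sided), adjusted over all of them, and fold changes on this scale understate those of low genes. The fit was tested on simulated data. Sums, shares and ratios were compared by two-sided exact permutation of group means. Named genes were the 8 highest Ighv and Igkv and all 3 Iglv genes, the 5 most negative and 5 most positive log2 fold changes among called members (the latter being the 4 that rose and Igkv10-94), and the highest gene of each locus and sample, with others named where a result turned on them. The members and lists were chosen with earlier results of these data known. Family shares, position along the locus and scaling to the V sum were added after the data were seen. Coding sequences were aligned globally, from GENCODE M21 for all 140 members. Promoter and protein sequences of V genes were not used here, and some listed genes are not reported here.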

Additional observations from a re-analysis of the deposited data

How the results depend on the processing

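No paired analysis was possible because the replicate numbers run from 1 to 3 in one group and from 4 to 6 in the other, so the groups have no number in common. The number of members called lower, 103, became 59 when a log2 fold change beyond 1 was also required (3.84% of all genes tested) and 35 after scaling to the summed V FPKM (2.63%). The number called higher, 4, became 2 with a pseudocount of 0.1 (22.1% of all genes tested), 2 without a filter on low values (8.86%), 2 with T lineage scaling (5.36%), 1 with a log2 fold change beyond 1 (1.16%) and 47 after scaling to the summed V FPKM (91.6%). With a mean of at least 5, only 76 members were tested, among them 71 of the 103 and 1 of the 4, and each of these kept its call (15.9% of all genes lower and 24.4% higher). Leaving out 1 sample gave 93 to 99 members lower (13.1% to 17.8% of all genes) and 2 to 3 higher (16% to 23.9%), the 2 being without MWA+2DG replicate 6. Of the 103, 83 to 103 were also called lower with another pseudocount, filter, scaling or variance model or with 1 sample left out where all 103 were tested, except with scaling to the summed V FPKM, where 35 were. T lineage scaling gave 119 members and 56.7% of all genes lower, and it moved the median of all genes to -0.30 and that of the members to -1.21. The effective number of Igkv genes, lower by 0.445 in MWA+2DG, was 0.10 higher over all V genes listed and between -0.929 and 0.28 with 1 sample left out (0.28 without MWA+PBS replicate 3), and it was lower without overlap by 2.97 with the inverse Simpson index and by 1.75 over members with a mean of at least 5. The log2 ratio of Igkv to Igkc changed from -0.0038 to 0.0013 over all V genes listed and was between -0.0179 and 0.0098 with 1 sample left out. The causes were not tested. The locus and family sums, the Ighv effective number, the kappa share, the Ighv to constant ratio and the ratio to T cell receptor V genes kept their direction under each alternative. Of 28 named genes, 24 kept their call under each of the 14 or 15 alternatives in which they were tested. The alternatives counted for single genes were another pseudocount, filter, scaling or variance model or 1 sample left out. The cut at a log2 fold change beyond 1 and the scaling to the summed V FPKM were not counted, and several of the 24 lose their call there. With 3 samples per group, an exact p cannot pass 0.05.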

Other observations

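The joining (J) segments, which are very short and therefore give unsteady FPKM, were also quantified. Of 9 Ighj and Igkj genes tested, 6 were lower and 1 higher in MWA+2DG (median log2 fold change -1.03), beside 17.1% lower and 22.3% higher over all genes tested. Igkj1 was 207 ± 8.96 FPKM in MWA+PBS against 71.4 ± 31.8 in MWA+2DG, and Ighj4 was 100.4 ± 5.01 and 48.2 ± 6.96. Igkj3 was 0.58, 0.3 and 1 FPKM in MWA+PBS against 5.04, 3.45 and 6.3 FPKM in MWA+2DG. Igkj5 was 1.58, 89.61 and 74.92 FPKM in the 3 MWA+PBS samples, so MWA+PBS replicate 1 stood far below the others.

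The recombinase genes Rag1 and Rag2 were at most 0.13 FPKM in each sample. Both were too low to be tested. Of 13 other genes of recombination, class switching and the DNA repair they share, 2 were higher and 3 lower, with a median of 0.07, where 22.3% and 17.1% of all genes tested were higher and lower. Dntt, which adds bases at V(D)J joints, was 4.32 ± 0.206 FPKM in MWA+PBS against 0.673 ± 0.157 in MWA+2DG, and the log2 fold change was -1.67 (limma, adjusted p = 1.59e-05).

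Of the other lists, 19 of 24 T lineage genes were higher and 0 lower (median 0.44), beside 22.3% higher and 17.1% lower over all genes tested, which holds for each list here. Of 9 erythroid genes tested, 0 were higher and 9 lower (median -1.50). Of 14 neutrophil genes, 11 were higher and 2, Mpo and Elane, lower (median 3.91). Of 14 monocyte and macrophage genes, 0 were higher and 14 lower (median -2.60).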
